A study of Mus musculus with 12 samples.

Results

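The genes described here code for the degrading enzymes and the membrane proteins of the lysosome, together with Tfeb, a transcription factor of lysosomal genes. They come from a list of 42 symbols, and a symbol was measured where a probe set carried it as its only gene symbol. Of these, 40 were found among the 12393 genes measured, each through the probe set of that gene that was brightest on average. They comprise 11 proteases, 11 glycosidases and sulfatases, 9 lipid enzymes, lipid carriers and phosphatases, 8 membrane proteins, and Tfeb. Arsb and Cd63 are not analysed here.

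The lysosome is the acidic compartment in which macrophages digest phagocytosed, endocytosed and autophagic cargo. Its soluble hydrolases take apart proteins, glycans, sulfated sugars, lipids and phosphate esters, while a heavily glycosylated membrane holds the transporters and channels that move products out. TFEB and its relatives bind a short E-box motif with the core CACGTG in the promoters of many lysosomal genes, and are best known for raising those genes when nutrient signalling through mTORC1 falls.

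Macrophages were grown from the marrow of 129-SvEv-Tac mice over 5 days, with 10% serum and 30% medium conditioned by L cells, which supplies the growth factor that macrophages need. There were 2 genotypes: IL10-/- cells, which lack the cytokine IL-10, and p50-/-IL10-/- cells, which also lack Nfkb1, the gene of the NF-kB subunits p105 and p50. No group had its own Il10. Each genotype was examined untreated, with 1 ng/ml LPS (lipopolysaccharide, a bacterial cell-wall component), or with that LPS and 0.3 ng/ml IL-10, and RNA was harvested at 4 h. Each of the 6 groups held 2 Affymetrix arrays, called biological replicates in the labels, with no statement on whether mice or cultures were pooled.

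Values are log2 expression levels from RMA, so a difference of 1 is a doubling. A gene was called higher or lower at an adjusted p under 0.05 (limma, Benjamini-Hochberg over all 12393 genes, two-sided). Differences are given in log2 with their standard error (± SE), for means of 2 arrays per group unless stated. The SE of a gene uses a spread shared over all 6 groups and moderated by limma. It is therefore the same in every comparison of 2 groups and does not describe the 2 groups compared alone. Mean levels of the members ran from 8.33 to 13.83, while the lower quartile of all genes was 5.80 to 5.94 depending on the array, so no member was dim by this measure. The macrophage markers averaged 11.60 to 11.91 on every array. Markers of dendritic, B, T and NK, erythroid and mast cells averaged 5.24 to 6.15, with none called in the average genotype difference. Genotypes were taken from the labels, and transcripts of Nfkb1 are not analysed here.

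Because Tfeb is a member, the promoters were searched for CACGTG and for the longer TCACGTGA that contains it; both are palindromes, so a search of 1 strand covers both strands. RefSeq windows from 250 bases before to 50 bases after the gene start (GRCm38.p6) were at hand for 36 members. CACGTG was present in 12 of the 36 windows (33.3%), against 10.8% of the 9882 windows of genes on the array and 8.09% of all 27025 windows. TCACGTGA was present in 5 of 36 (13.9%), against 1.76% and 1.12%. The 12 holders were Ctsa, Ctsd, Ctsl, Lgmn, Arsa, Gaa, Gla, Glb1, Naglu, Cln3, Lamp1 and Mcoln1, and the 5 with the longer motif were Ctsa, Ctsd, Gla, Cln3 and Mcoln1. A match describes the letters of the window and is not evidence of binding.

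The stretches below are 60 bases long, written 5′ to 3′ on the gene's strand, with the CACGTG core in capitals. Gla, Naglu and Glb1 are shown because they were called lower with LPS and higher in p50-/-IL10-/- cells on average, Cln3 because it was higher in p50-/-IL10-/- cells, and Ctsd because it was not called in any comparison.
Gla (chrX:134601167-134601226, minus strand): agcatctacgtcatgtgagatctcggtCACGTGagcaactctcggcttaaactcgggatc
Naglu (chr11:101069994-101070053, plus strand): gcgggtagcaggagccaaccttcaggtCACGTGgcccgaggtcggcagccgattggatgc
Glb1 (chr9:114401003-114401062, plus strand): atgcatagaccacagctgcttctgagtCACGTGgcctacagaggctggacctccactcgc
Cln3 (chr7:126583325-126583384, minus strand): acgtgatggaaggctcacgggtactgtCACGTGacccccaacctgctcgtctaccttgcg
Ctsd (chr7:142387893-142387952, minus strand): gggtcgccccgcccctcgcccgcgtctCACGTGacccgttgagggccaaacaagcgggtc
In Gla the core ended 188 bases before the start, in Cln3 115, in Ctsd 92, in Naglu 67 and in Glb1 42. The genes shown were picked by their calls, which for Gla are those of the probe set used. The stretches therefore cannot show whether the motif goes with the LPS change, which was not tested.

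The first comparison asked what LPS did to lysosomal transcripts within 4 h. In IL10-/- cells 17 of the 40 members fell, 2 rose (Acp5 and Acp2) and 21 were not called, while among all genes 24.8% were called, 7.76% higher and 17.1% lower. In p50-/-IL10-/- cells 16 fell, 1 rose (Ctsc) and 23 were not called, against 32.4% of all genes called, 10.3% higher and 22.1% lower. The median change of the members was -0.23 in IL10-/- cells and -0.21 in p50-/-IL10-/- cells, beside -0.008 and -0.012 over all genes. The 15 members that fell in both genotypes were Tpp1, Gla, Gusb, Neu1, Manba, Naglu, Glb1, Fuca1, Arsa, Npc1, Smpd1, Ppt1, Scarb2, Laptm5 and Tfeb. The share of all genes that fell in both was not counted. In bulk RNA, fewer cells of a type and less RNA per cell cannot be told apart.

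**Figure D1:**
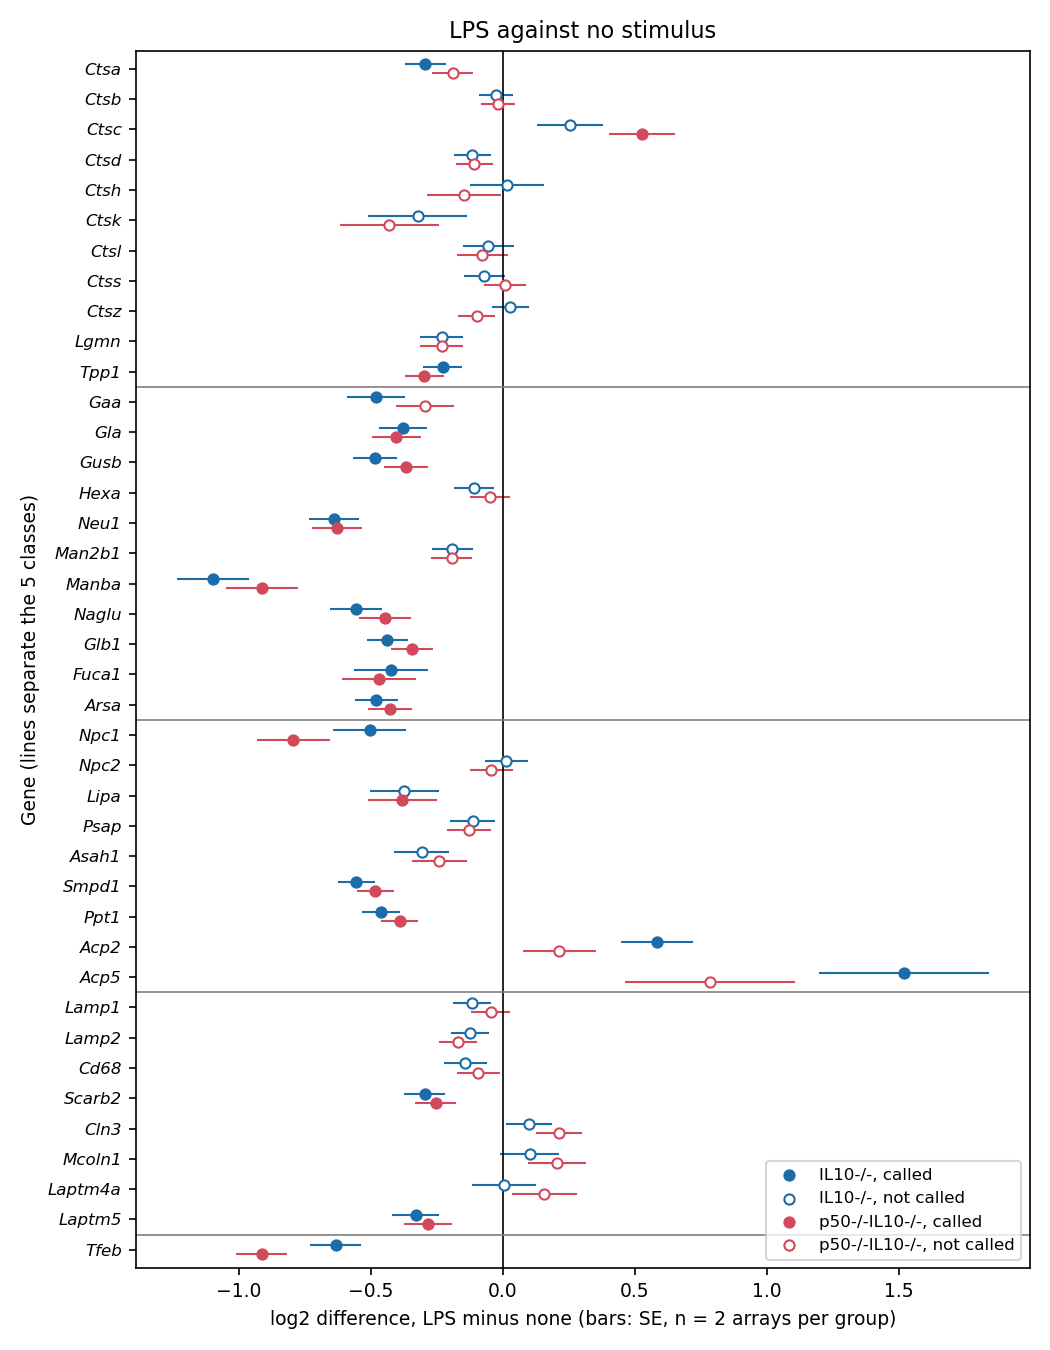
Log2 difference of each member, LPS minus no stimulus, in IL10-/- (blue) and p50-/-IL10-/- cells (red), with SE bars. Each group held 2 arrays, and the SE uses the spread shared over the 6 groups. Filled points were called at an adjusted p under 0.05 (limma). All 11 glycosidases and sulfatases lie to the left of 0 in both genotypes, most proteases lie near 0, and Acp5 lies farthest to the right.

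The sugar-cleaving enzymes were lower in both genotypes. All 11 glycosidases and sulfatases had a negative difference in both genotypes; 9 were called lower in IL10-/- cells (median -0.48) and 8 in p50-/-IL10-/- cells (median -0.40). Manba codes for β-mannosidase, which removes the last mannose of N-glycan fragments. In IL10-/- cells its levels were 9.40 and 9.34 without stimulus and 8.12 and 8.42 with LPS, and in p50-/-IL10-/- cells they were 9.25 and 9.29 against 8.20 and 8.51. Unstimulated and LPS arrays did not overlap in either genotype. Manba fell by 1.10 ± 0.14 (adjusted p = 0.000204) and 0.91 ± 0.14 (adjusted p = 0.000453), the largest decrease of any member in IL10-/- cells and level with that of Tfeb in p50-/-IL10-/- cells.

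Neu1, the lysosomal sialidase, read 9.56 and 9.44 untreated and 8.75 and 8.96 with LPS in IL10-/- cells. Cells without p50 gave 9.28 and 9.32 untreated and 8.65 and 8.70 with LPS. Every LPS array lay below every unstimulated array, and the decreases of 0.64 ± 0.09 and 0.63 ± 0.09 were alike in size. With the Neu1 probe set of largest variance the decrease in IL10-/- cells was not called (limma, adjusted p = 0.0775), while that in p50-/-IL10-/- cells was. Gusb, which cleaves glucuronic acid from glycosaminoglycans, fell by 0.48 and 0.37. With its probe set of largest variance neither decrease was called (limma, adjusted p = 0.337 and 0.503). Naglu, an enzyme of heparan sulfate breakdown, fell by 0.56 and 0.45, and Glb1, the lysosomal β-galactosidase, fell by 0.44 and 0.35. Arsa, which removes sulfate from sulfatide, fell by 0.48 and 0.43, and Fuca1, an α-fucosidase, by 0.43 and 0.47. Gaa, the enzyme of lysosomal glycogen breakdown, fell by 0.48 in IL10-/- cells and differed by -0.29 where p50 was missing, which was not called. Hexa and Man2b1 were not called in either genotype.

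Gla, α-galactosidase A, which clears globotriaosylceramide, fell by 0.38 ± 0.09 in IL10-/- cells and 0.40 ± 0.09 in p50-/-IL10-/- cells. Its second, dimmer probe set went the other way, with 0.64 ± 0.20 in IL10-/- cells (called higher over all probe sets) and 0.17 ± 0.20 in p50-/-IL10-/- cells, so the LPS direction of Gla depends on the probe set. On the brighter set the call was lost without unstimulated replicate 1 or LPS replicate 2 in IL10-/- cells (adjusted p = 0.069 and 0.063), and without unstimulated replicate 2 or LPS replicate 1 in p50-/-IL10-/- cells (0.055 and 0.053). Man2b1, the α-mannosidase that acts ahead of Manba, differed by -0.19 ± 0.08 in both genotypes on the probe set used, while a dimmer probe set gave -2.33 ± 0.11 and -1.99 ± 0.11, called lower in both. Of the 19 members called with LPS in IL10-/- cells 10 had more than 1 probe set; the signs differed between probe sets for Gla, Neu1 and Laptm5, and all probe sets were called the same way for Gaa. Without p50 the signs differed for Gla and Laptm5 among 9 such members.

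Of the 9 lipid enzymes and phosphatases, 3 fell and 2 rose in IL10-/- cells with 4 not called, and 4 fell in p50-/-IL10-/- cells with 5 not called. Npc1, the membrane protein that passes cholesterol out of the lysosome, read 10.21 and 10.32 untreated and 9.69 and 9.83 with LPS in IL10-/- cells. Without p50 it went from 10.03 and 10.10 to 9.06 and 9.48. The arrays did not overlap in either genotype, and the decreases were 0.50 ± 0.14 (adjusted p = 0.0214) and 0.80 ± 0.14 (adjusted p = 0.0012). The first was lost without either unstimulated IL10-/- array (adjusted p = 0.051 without replicate 1 and 0.129 without replicate 2) and without LPS replicate 1 (adjusted p = 0.125). Npc2, its soluble partner in cholesterol export, was not called, with 0.01 and -0.04.

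Ppt1, which strips palmitate from proteins, read 9.77 and 9.88 untreated and 9.33 and 9.39 with LPS in IL10-/- cells, and 9.87 and 9.86 against 9.49 and 9.45 in p50-/-IL10-/- cells. It fell by 0.46 ± 0.07 and 0.39 ± 0.07, with no overlap. Smpd1, acid sphingomyelinase, fell by 0.56 ± 0.07 and 0.48 ± 0.07. Lipa, the acid lipase that frees cholesterol from its esters, fell by 0.38 in p50-/-IL10-/- cells and differed by -0.37 in IL10-/- cells, which was not called. Psap, the saposin precursor, and Asah1, acid ceramidase, were not called in either genotype.

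Acp5, tartrate-resistant acid phosphatase, rose with LPS in IL10-/- cells. Its 2 unstimulated arrays there were far apart, at 9.34 and 7.91, while the LPS arrays read 10.19 and 10.11. Without p50 it read 10.62 and 10.55 untreated and 11.39 and 11.34 with LPS. The LPS arrays were above the untreated ones in both genotypes. The rise was 1.52 ± 0.32 (limma, adjusted p = 0.00544) in IL10-/- cells. In p50-/-IL10-/- cells the difference was 0.78 ± 0.32, which was not called (adjusted p = 0.0909). That SE is shared over the groups. The SD between arrays was 1.01 in unstimulated IL10-/- cells and 0.008 to 0.10 in the other groups. Without unstimulated IL10-/- replicate 1 the rise was 2.24, and without replicate 2 it was 0.81, so its size rested on which of these arrays was kept. Acp2, the other lysosomal acid phosphatase, rose by 0.58 ± 0.14 in IL10-/- cells; its call was lost without unstimulated replicate 2 (adjusted p = 0.091) or LPS replicate 1 (adjusted p = 0.087).

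Few proteases were called. Among the 11, Ctsa (protective protein, a serine carboxypeptidase) fell by 0.29 and Tpp1 (tripeptidyl peptidase) by 0.23 in IL10-/- cells, with none higher. Where p50 was missing, Tpp1 fell by 0.30 and Ctsc, the cathepsin that activates granule serine proteases, rose by 0.53 ± 0.13. The median over the proteases was -0.07 and -0.11, and it turned to 0.02 in both genotypes when each array was centred on its own median. The 9 proteases not called in IL10-/- cells ranged from -0.32 to 0.25. They included cathepsins B, D, L and S, the main endopeptidases of the macrophage lysosome.

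Of the 8 membrane proteins, Scarb2 and Laptm5 fell in both genotypes and the others were not called. Scarb2 (LIMP-2) carries β-glucocerebrosidase to the lysosome. Its levels were 11.65 and 11.67 untreated and 11.29 and 11.44 with LPS in IL10-/- cells, and 11.49 and 11.52 against 11.28 and 11.23 in p50-/-IL10-/- cells. Untreated arrays lay above LPS arrays in both genotypes, with decreases of 0.30 ± 0.08 and 0.25 ± 0.08. The call in IL10-/- cells was lost without either unstimulated array or LPS replicate 1 (adjusted p 0.072, 0.096 and 0.123), and that in p50-/-IL10-/- cells when any of the 4 arrays was left out (adjusted p between 0.075 and 0.127). Laptm5, a transmembrane protein of lysosomes in blood cells, fell by 0.33 and 0.28. Lamp1 and Lamp2, the most abundant lysosomal membrane glycoproteins, differed by -0.17 to -0.05.

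Tfeb itself fell. Its levels in IL10-/- cells were 9.26 and 9.41 untreated and 8.61 and 8.79 with LPS. Those in p50-/-IL10-/- cells were 9.27 and 9.16 untreated and 8.32 and 8.28 with LPS. All 4 LPS arrays lay below all 4 untreated arrays, and Tfeb fell by 0.63 ± 0.10 (adjusted p = 0.000801) and 0.91 ± 0.10 (adjusted p = 4.38e-05). The 12 members with CACGTG in the promoter window had 6 called lower and 0 higher in IL10-/- cells (median -0.26) and 4 lower in p50-/-IL10-/- cells (median -0.21). The 24 members whose window lacked it had 10 lower and 2 higher (median -0.21), and 11 lower and 1 higher (median -0.22), so the medians of the motif holders and of the rest lay close together.

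**Figure D2:**
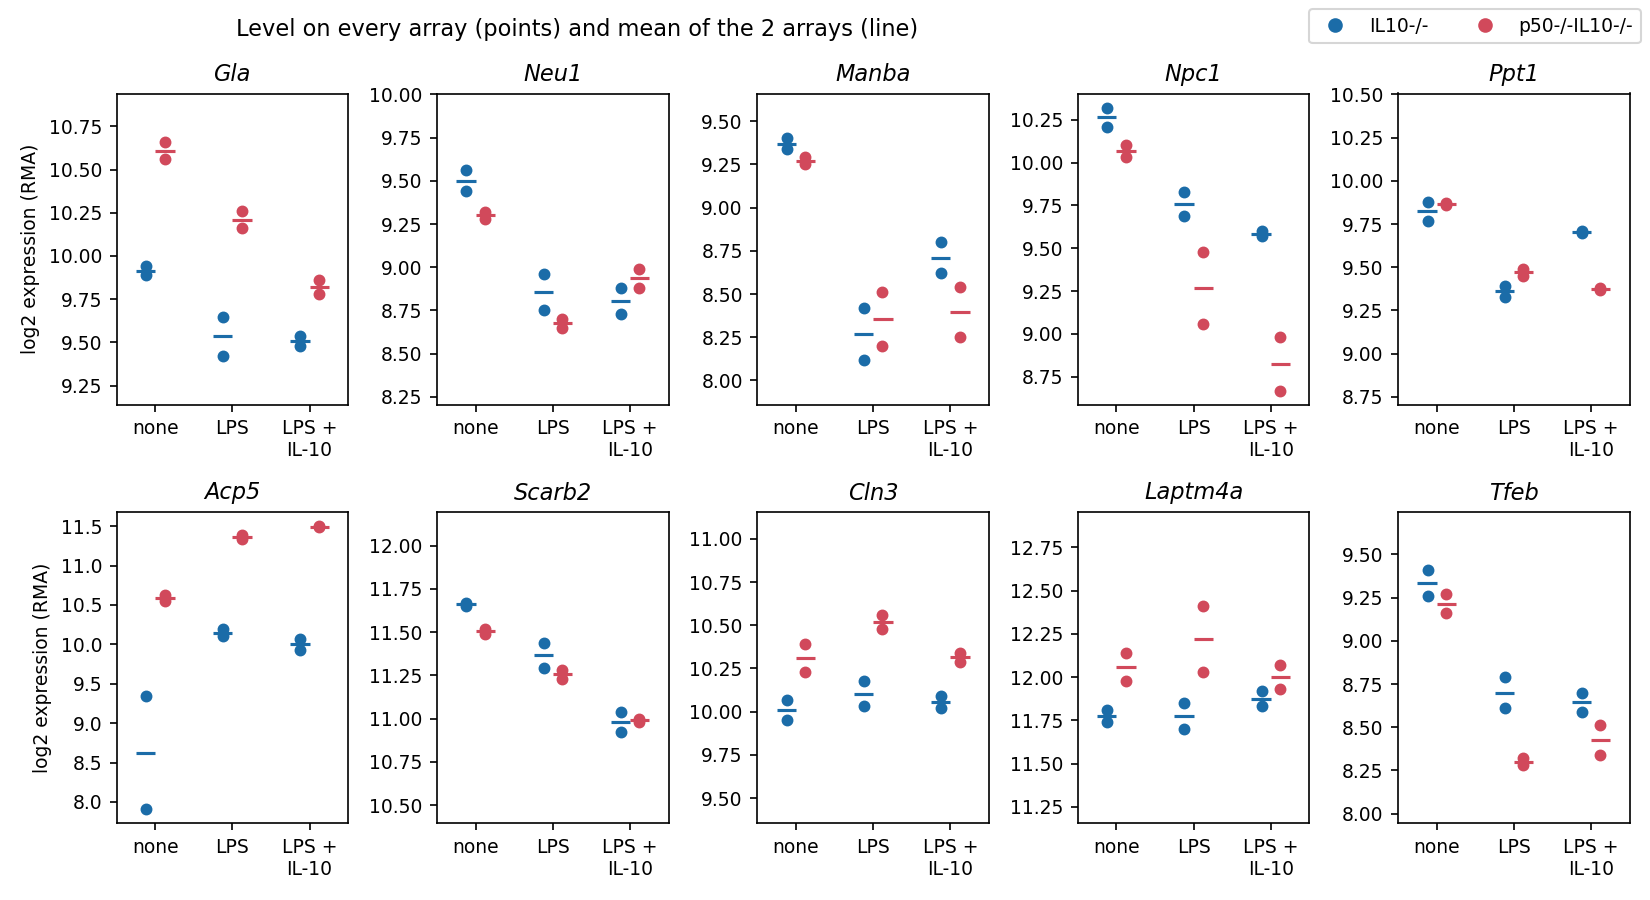
Log2 level of 10 members on each array (points) and the mean of the 2 arrays (line) for no stimulus, LPS, and LPS with IL-10, in IL10-/- (blue) and p50-/-IL10-/- cells (red). The level axes differ between panels; Manba, Neu1, Npc1, Scarb2 and Tfeb drop with LPS, and the unstimulated IL10-/- points of Acp5 are spread from 7.91 to 9.34.

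The changes in both genotypes ran in parallel across the members, as they did over all genes. Of the 40, 36 had the same sign, and the share of all genes with the same sign was not counted. Over these 40 points, which come from separate arrays for each genotype, Pearson's r was 0.904 and Spearman's rho 0.946. The r over all genes was 0.888, close to that of the members. Genes on an array are not independent replicates. No member's LPS response was called different between the genotypes (limma, 0 at an unadjusted p under 0.05, where 10% of all genes were; 1.19% of all genes called, 0.734% higher and 0.452% lower). For Npc1 the difference of responses was -0.29 (95% interval -0.72 to 0.14) and for Acp5 it was -0.74 (95% interval -1.74 to 0.27), so the precision allows sizeable differences. Without unstimulated IL10-/- replicate 1, 1 member's response was called different.

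Leaving out 1 array at a time shortened these lists. Calls of 10 of the 19 members in IL10-/- cells (Acp5, Arsa, Glb1, Gusb, Manba, Naglu, Neu1, Ppt1, Smpd1 and Tfeb) and of 8 of the 17 in p50-/-IL10-/- cells (Arsa, Glb1, Manba, Neu1, Npc1, Ppt1, Smpd1 and Tfeb) held without each array in turn. The count in IL10-/- cells was 11 without unstimulated replicate 1, and that in p50-/-IL10-/- cells was 9 without LPS replicate 1 and 11 without unstimulated replicate 2. Array medians over the genes differed by -0.128 between LPS and untreated p50-/-IL10-/- arrays, while the median change over all genes was -0.012. Centring each array on its median raises every difference by the size of the first value, which moves the median change over all genes above 0. The split in these cells then became 4 higher (Ctsc, Acp5, Cln3 and Mcoln1) and 11 lower, with 7 glycosidases and sulfatases still called lower and no protease or membrane protein lower. The same step in IL10-/- cells gave 2 higher and 12 lower, with 8 glycosidases and sulfatases lower. The share of all genes called in each of these refits is not given, so a changed count need not be particular to the members.

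The brightest members were not called. A mean level above 13 was found for 9 members (Ctsb, Ctsd, Ctsl, Ctss, Hexa, Npc2, Psap, Lamp1 and Cd68; a bound chosen after the values were seen), and with LPS limma called 0 of them in either genotype, while 19 and 17 of the 31 others were. Over all 50 genes above that level 6% and 8% were called. The highest value on any array was 14.17 to 14.22. For Ctsb 2 dimmer probe sets were called lower in p50-/-IL10-/- cells, with -0.29 ± 0.08 and -0.44 ± 0.12. The first of them was also called lower in IL10-/- cells, with -0.25 ± 0.08 (adjusted p = 0.0428 over all probe sets), and the other, with -0.30 ± 0.12, was not called there. Whether the probe signal of these genes was near its ceiling was not tested.

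Other genes of the lysosomal pathway were counted in the same way. Over all genes 17.1% were lower and 7.76% higher in IL10-/- cells, and 22.1% lower and 10.3% higher in p50-/-IL10-/- cells. Of 23 other lysosomal enzymes 13 were called lower and 0 higher in IL10-/- cells and 9 lower and 0 higher in p50-/-IL10-/- cells. Sgsh, a sulfatase of heparan sulfate breakdown, fell by 1.81 ± 0.09 and 1.44 ± 0.09. Pla2g15, the lysosomal phospholipase A2, fell by 1.28 ± 0.12 and 1.36 ± 0.12, and Pcyox1, prenylcysteine oxidase, by 0.83 and 0.58. Of 16 subunits of the V-ATPase, the pump that acidifies the lysosome, 5 were lower and 1 higher, and 9 lower and 1 higher. Its largest decreases were those of Atp6v0a1 (0.52 and 0.71 lower on the log2 scale), Atp6v1c1 and Atp6v0d1.

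Of 20 genes that sort and deliver cargo to the lysosome 7 and 9 were lower and 0 higher. The shares of all genes were 17.1% and 22.1% lower, and 7.76% and 10.3% higher. Vps39 and Vps18, subunits of complexes that tether vesicles to lysosomes, fell by 1.14 and 1.05, and by 1.00 and 1.57. Gga2, an adaptor for mannose 6-phosphate receptors, fell by 0.82 and 1.00. Of 15 autophagy genes 7 were lower and 2 higher, and 6 lower and 1 higher; Ulk1, the kinase that starts autophagosome formation, fell by 1.11 and 0.97. Of 18 other lysosomal membrane proteins 7 were lower and 2 higher, and 6 lower and 3 higher. Tpcn1, a calcium and sodium channel, fell by 1.17 and 0.79, Slc29a3, a nucleoside transporter, gave -1.16 and -1.53, and Clcn7, the chloride-proton exchanger, rose by 0.82 and 1.25.

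Tfec and Mitf, relatives of Tfeb, rose in both genotypes. Tfec rose by 2.03 ± 0.18 and 2.82 ± 0.18, and Mitf by 1.04 ± 0.08 and 0.92 ± 0.08. Flcn, folliculin, which with its partners controls TFEB and TFE3 through the Rag GTPases, gave -1.39 ± 0.20 and -2.28 ± 0.20, called lower in both. Of the 11 genes of this list (MiT factors and nutrient sensing) 5 were lower and 2 higher in IL10-/- cells, and 6 lower and 2 higher in p50-/-IL10-/- cells. Over all genes 17.1% were lower and 7.76% higher, and 22.1% lower and 10.3% higher. Of 5 inhibitors of cysteine cathepsins only Cst7, cystatin F, was called, and it rose by 1.26 ± 0.21 and 1.70 ± 0.21.

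The next comparison asked what 0.3 ng/ml IL-10 did on top of LPS. Few members were called: in IL10-/- cells Ppt1 rose and Scarb2 fell, with 6.17% of all genes called (3.35% higher, 2.82% lower), and in p50-/-IL10-/- cells Gla fell, with 6.57% of all genes called (3.7% higher, 2.87% lower). The median difference of the members was -0.006 and -0.05. Ppt1 in IL10-/- cells given LPS and IL-10 read 9.70 and 9.71, above the 2 LPS arrays, and rose by 0.34 ± 0.07 (adjusted p = 0.0164). Its p50-/-IL10-/- arrays read 9.38 and 9.37, and the difference was -0.10 (95% interval -0.25 to 0.06). Scarb2 read 10.92 and 11.04 in IL10-/- cells, below both LPS arrays, and fell by 0.38 ± 0.08 (adjusted p = 0.0153). In p50-/-IL10-/- cells both arrays were below both LPS arrays too, with a mean of 10.99 and a difference of -0.26 (95% interval -0.44 to -0.09, adjusted p = 0.0747), which was not called.

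Gla fell by 0.39 ± 0.09 with IL-10 in p50-/-IL10-/- cells (adjusted p = 0.0336), from 10.16 and 10.26 to 9.86 and 9.78. In IL10-/- cells the difference was -0.03 (95% interval -0.23 to 0.18), with arrays at 9.54 and 9.48 between the LPS arrays at 9.65 and 9.42. Manba differed by 0.44 in IL10-/- cells, from 8.12 and 8.42 to 8.62 and 8.80, and by 0.04 in p50-/-IL10-/- cells; neither was called. No genotype difference of the IL-10 effect was called (limma, 3 members at an unadjusted p under 0.05, where 11.7% of all genes were; 0.137% of all genes called, 0.0968% higher and 0.0403% lower); that of Ppt1 was -0.44 (95% interval -0.66 to -0.22, adjusted p = 0.179) and that of Gla -0.37 (95% interval -0.65 to -0.08, adjusted p = 0.347). None of the 3 calls held without each array in turn. That of Ppt1 was lost without LPS replicate 1 (adjusted p = 0.089), LPS with IL-10 replicate 1 (0.083) or replicate 2 (0.1). That of Scarb2 was lost without LPS replicate 2 (0.058) or LPS with IL-10 replicate 1 (0.125), and that of Gla when any of its 4 arrays was left out (adjusted p between 0.098 and 0.18).

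Against no stimulus, LPS with IL-10 left 14 members lower and 3 higher in IL10-/- cells (19.5% of all genes called, 6.94% higher and 12.5% lower) and 17 lower and 2 higher in p50-/-IL10-/- cells (37.9% of all genes called, 16.7% higher and 21.2% lower). These differences use the same unstimulated arrays as those of LPS alone. Npc1 read 9.60 and 9.57 in IL10-/- cells and 8.98 and 8.67 in p50-/-IL10-/- cells, which made it 0.68 ± 0.14 and 1.24 ± 0.14 lower on the log2 scale than without stimulus. Scarb2 fell by 0.68 ± 0.08 and 0.52 ± 0.08, Gla by 0.40 ± 0.09 and 0.80 ± 0.09, and Manba by 0.66 ± 0.14 and 0.87 ± 0.14. Tfeb read 8.59 and 8.70, and 8.51 and 8.34, and fell by 0.69 ± 0.10 and 0.80 ± 0.10. Neu1 read 8.73 and 8.88, and 8.88 and 8.99, and fell by 0.69 and 0.37. With its probe set of largest variance neither decrease was called (limma, adjusted p = 0.169 and 0.449). The Neu1 call in p50-/-IL10-/- cells was lost without unstimulated replicate 2 (adjusted p = 0.069) or LPS with IL-10 replicate 1 (0.080). Ctsc rose by 0.47 and 0.46 and Acp5 by 1.37 and 0.91 (2.09 and 0.66 in IL10-/- cells without unstimulated replicate 1 or 2), and Acp2 rose by 0.56 in IL10-/- cells. All 11 glycosidases and sulfatases again had a negative difference in both genotypes, 8 of them called in each. These were Arsa, Gla, Glb1, Gusb, Manba, Naglu and Neu1, with Gaa in IL10-/- and Fuca1 in p50-/-IL10-/- cells. Lipa fell by 0.64 and 0.39, and Smpd1 was lower in both. Laptm5 fell by 0.36 in IL10-/- cells. In p50-/-IL10-/- cells Asah1 fell by 0.31 and Lamp2 by 0.28, and Tpp1 and Ppt1 were lower too. The calls of Lipa, Laptm5, Asah1 and Lamp2 did not hold without each array in turn. Calls of 10 of the 17 members in IL10-/- cells and of 12 of the 19 in p50-/-IL10-/- cells held without each array in turn, and the first count was 11 without LPS with IL-10 replicate 1. The calls of Manba and Acp5 in IL10-/- cells were lost without that array (adjusted p = 0.058 and 0.075), and that of Acp5 in p50-/-IL10-/- cells when any of its 4 arrays was left out (between 0.126 and 0.156).

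The last set of comparisons set lysosomal transcripts of p50-/-IL10-/- cells against those of IL10-/- cells, with positive values for more RNA in p50-/-IL10-/- cells. Without stimulus 2 members were higher, Acp5 by 1.96 ± 0.32 and Gla by 0.70 ± 0.09, with 2.57% of all genes called, 1.26% higher and 1.31% lower. After LPS 6 were higher and 2 lower, beside 12.4% of all genes, 5.66% higher and 6.72% lower. After LPS with IL-10 there were 2 higher and 2 lower, beside 18% of all genes, 7.58% higher and 10.4% lower. Averaged over the 3 stimuli, 13 members were higher and 3 lower, against 25.7% of all genes called, 10.6% higher and 15.1% lower. The median of the members was 0.05, beside 0.004 over all genes.

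**Figure D3:**
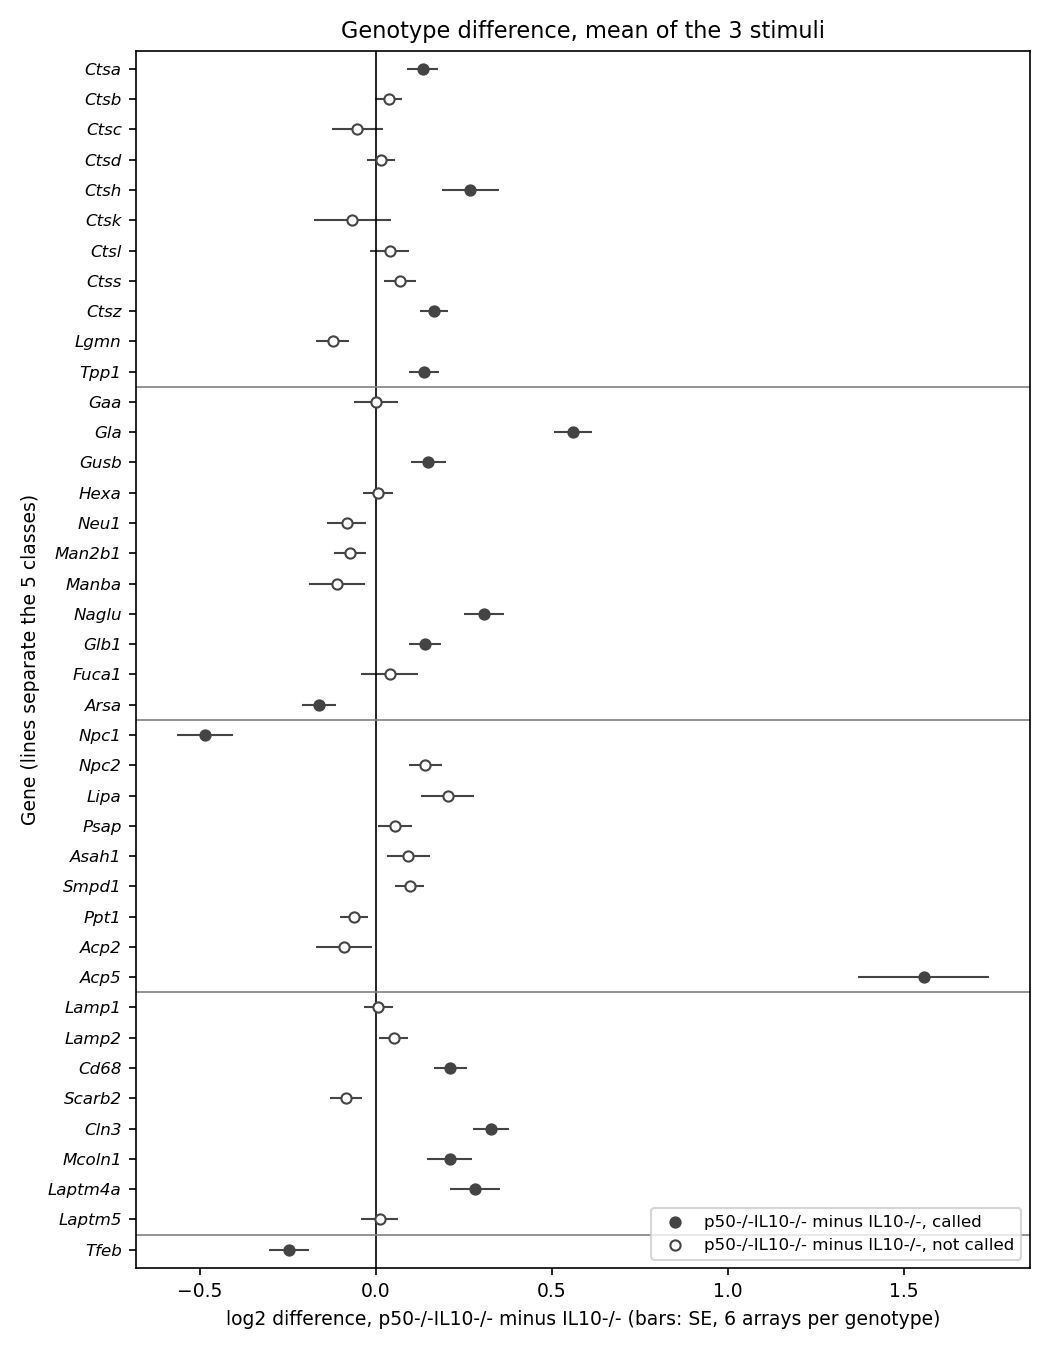
Log2 difference of each member between p50-/-IL10-/- and IL10-/- cells, averaged over the 3 stimuli, with SE bars from 6 arrays per genotype; filled points were called. Acp5 at 1.56 and Gla at 0.56 lie farthest to the right and Npc1 at -0.49 farthest to the left.

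On the probe set used, Gla was called higher in p50-/-IL10-/- cells at every stimulus. Each p50-/-IL10-/- array was above each IL10-/- array of the same stimulus: 10.56 and 10.66 against 9.94 and 9.89 untreated, 10.16 and 10.26 against 9.65 and 9.42 in LPS, and 9.86 and 9.78 against 9.54 and 9.48 where IL-10 was added. The differences were 0.70, 0.67 and 0.31, and the average was 0.56 ± 0.05 (adjusted p = 4.36e-05). Its second probe set gave 0.96 ± 0.20 without stimulus and an average of 0.51 ± 0.12, both called higher, but 0.49 ± 0.20 in LPS and 0.07 ± 0.20 where IL-10 was added, neither called. The call at LPS with IL-10 was lost when any of its 4 arrays was left out (adjusted p between 0.095 and 0.196).

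Acp5 was also above at every stimulus. With LPS and IL-10 its p50-/-IL10-/- arrays read 11.49 and 11.50 and its IL10-/- arrays 10.07 and 9.93, with no overlap between the genotypes at any stimulus. The differences were 1.96, 1.22 and 1.49, each ± 0.32, and the average was 1.56 ± 0.19 (limma, adjusted p = 0.000193). The SE of 0.32 is shared over the groups and includes the wide spread of the 2 unstimulated IL10-/- arrays. The unstimulated difference was 1.24 without unstimulated IL10-/- replicate 2 and 2.67 without replicate 1. It lost its call without either p50-/-IL10-/- unstimulated array (adjusted p = 0.072 and 0.071), as did the one with LPS when any of its 4 arrays was left out (adjusted p between 0.07 and 0.147), and the one at LPS with IL-10 without IL10-/- replicate 2 or either p50-/-IL10-/- array (0.068, 0.056 and 0.061). The average held without each of the 12 arrays in turn, between 1.32 and 1.79.

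Acp5 and Ctsk are also known from osteoclasts, so osteoclast markers were examined beside them. Of 6 measured, Nfatc1 was higher by 0.70 in the average genotype difference, Mmp9 differed by -0.38 (called lower) and 4 were not called. Their mean was 6.34 to 6.49 on the IL10-/- arrays and 6.36 to 6.57 on the p50-/-IL10-/- arrays. Calcr, the calcitonin receptor, had group means of 4.13 to 4.34, below the lower quartile of all genes. Nfatc1, Mmp9, Oscar and Itgb3 lay above that quartile in every group. With LPS, Nfatc1 was called lower in IL10-/- cells and higher in p50-/-IL10-/- cells. Oscar was called higher with LPS in p50-/-IL10-/- cells only, and the remaining markers were not called with LPS in either genotype. Whether osteoclast-like cells had a part in the Acp5 differences was not tested. Ctsk, the collagen-degrading cathepsin, was not called.

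The other members that were higher on average were spread over the classes. Among the membrane proteins they were Cln3 (0.33 ± 0.05), Laptm4a (0.28 ± 0.07), Cd68 (0.21 ± 0.05) and Mcoln1 (0.21 ± 0.06). Cln3, the protein lost in juvenile Batten disease, read 10.39 and 10.23, 10.56 and 10.48, and 10.29 and 10.34 in p50-/-IL10-/- cells. Its IL10-/- arrays read 10.07 and 9.95, 10.18 and 10.03, and 10.09 and 10.02. Every p50-/-IL10-/- array was above every IL10-/- array. Laptm4a, a transmembrane protein of late endosomes and lysosomes, read 12.14 and 11.98, 12.41 and 12.03, and 11.93 and 12.07 in p50-/-IL10-/- cells. Its IL10-/- values were 11.74 and 11.81, 11.85 and 11.70, and 11.92 and 11.83. Here too no p50-/-IL10-/- array fell below any IL10-/- array, though the closest were 11.93 and 11.92.

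Among the enzymes the average was higher for Naglu (0.31 ± 0.06), Ctsh (0.27 ± 0.08), Ctsz (0.17 ± 0.04), Gusb (0.15 ± 0.05), Glb1 (0.14 ± 0.05), Tpp1 (0.14 ± 0.04) and Ctsa (0.13 ± 0.04). Second probe sets of Tpp1 and Mcoln1 gave -0.01 and -0.02, neither called. With its probe set of largest variance Ctsz was not called (limma, adjusted p = 0.115). The 12 members with CACGTG in the promoter window had 6 higher and 1 lower on average (median 0.09). The 24 without it had 6 higher and 1 lower (median 0.05), so a larger share of the motif holders was called higher. Over all genes 10.6% were higher and 15.1% lower. Whether the motif goes with the genotype difference was not tested.

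The 3 members lower on average were Npc1, Tfeb and Arsa. Npc1 differed by -0.49 ± 0.08 (adjusted p = 0.00138). Its p50-/-IL10-/- arrays lay below the IL10-/- arrays at every stimulus, and the difference was -0.49 at LPS and -0.76 once IL-10 was added; without stimulus, where arrays of 10.03 and 10.10 faced 10.21 and 10.32, it was -0.20 and not called. With LPS the call was lost without IL10-/- replicate 1 or 2 (adjusted p = 0.054 and 0.18) or p50-/-IL10-/- replicate 1 (-0.28, adjusted p = 0.299). Tfeb differed by -0.25 ± 0.06 on average and by -0.40 ± 0.10 with LPS, where 8.32 and 8.28 faced 8.61 and 8.79; the LPS call was lost without IL10-/- replicate 2 (adjusted p = 0.137) or either p50-/-IL10-/- array (0.093 and 0.106). Untreated arrays of Tfeb overlapped between the genotypes, at 9.27 and 9.16 against 9.26 and 9.41. Arsa differed by -0.16 ± 0.05, and Ppt1 was called in 1 comparison, LPS with IL-10, at -0.33 ± 0.07; that call was lost without replicate 2 of either genotype (adjusted p = 0.063 and 0.062).

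With LPS the 6 higher members were Acp5, Gla, Laptm4a (0.44 ± 0.12), Cln3 (0.41 ± 0.09), Naglu (0.38 ± 0.10) and Cd68 (0.30 ± 0.08), and of these only the call of Gla held without each of the 4 arrays in turn. The count of 8 became 2 without IL10-/- LPS replicate 2 or p50-/-IL10-/- LPS replicate 1, 4 without p50-/-IL10-/- LPS replicate 2 and 5 without IL10-/- LPS replicate 1. At LPS with IL-10 the 4 calls became 2 without IL10-/- replicate 2 or either p50-/-IL10-/- array, and without stimulus the count of 2 became 1 without either p50-/-IL10-/- array. The average count of 16 was 9 without IL10-/- unstimulated replicate 2 or either p50-/-IL10-/- unstimulated array, and 10 without IL10-/- LPS with IL-10 replicate 2 or p50-/-IL10-/- LPS replicate 1. Acp5, Cd68, Cln3, Ctsz, Gla, Laptm4a, Naglu, Npc1 and Tfeb kept their average call without each of the 12 arrays. With each array centred on its median the split was 6 higher and 1 lower at LPS, and 1 higher and 2 lower at LPS with IL-10. These refits, too, are given without the share of all genes called.

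Markers of other cells moved with genotype as well. Of 9 stromal markers 6 were lower in p50-/-IL10-/- cells on average (Dcn by -1.62), with array means of 6.31 to 6.85 in IL10-/- and 5.69 to 5.98 in p50-/-IL10-/- cells. Of 8 neutrophil markers 7 were lower (S100a9 by -1.09), with array means of 8.54 to 8.72 and 7.95 to 8.15. Of 8 macrophage markers 3 were lower and 1 higher. The part of these cells in the genotype differences of the lysosomal genes was not tested.

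The average genotype difference was counted in the other lysosomal lists as well, beside 10.6% of all genes called higher and 15.1% lower. Of 23 other lysosomal enzymes 6 were higher and 5 lower on average; Ctse, cathepsin E, was higher by 0.46 ± 0.05, Dnase2a, the lysosomal DNase, differed by -0.41 ± 0.11, and Ctsf, cathepsin F, by -0.38 ± 0.09. Of 16 V-ATPase subunits 0 were higher and 3 lower. Of 20 sorting genes 1 was higher, Gnptab (0.45 ± 0.05), which starts the mannose 6-phosphate tag of lysosomal enzymes, and 5 lower. Of 5 inhibitors of cysteine cathepsins 1 was higher, Cst7 (1.65 ± 0.12), and 0 lower. Of 18 other lysosomal membrane proteins 4 were higher and 3 lower, with Clcn7 higher by 0.80 ± 0.10. Mcoln3, a lysosomal cation channel, differed by -1.89 ± 0.19 and Tpcn2, a channel related to Tpcn1, by -0.71 ± 0.08. Of 15 autophagy genes 1 was higher, Uvrag (0.33 ± 0.05), and 3 were lower. Sqstm1, the autophagy receptor p62, differed by -0.54 ± 0.05 and Pik3c3, the lipid kinase of autophagosome formation, by -0.60 ± 0.07. Of the 11 MiT factors and nutrient sensing genes 2 were higher and 1 lower.

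**Figure D4:**
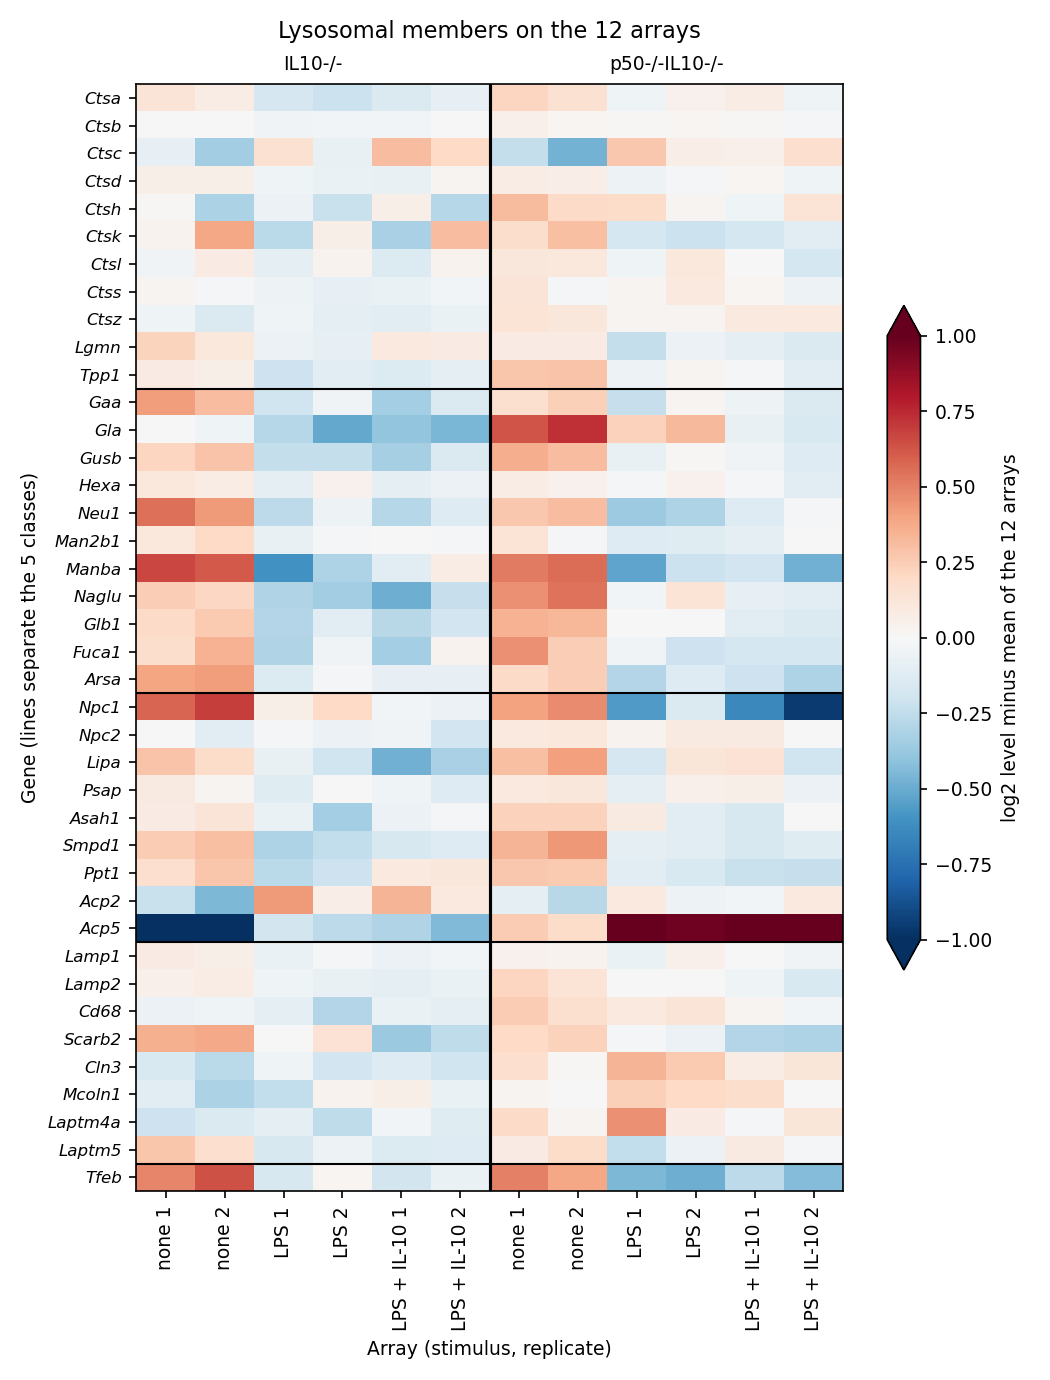
Level of each member on each of the 12 arrays minus its mean over the arrays, in log2, with rows grouped by class and columns by genotype and stimulus; the colour scale ends at 1 and -1. The unstimulated columns are red for most glycosidases and sulfatases and for Tfeb in both genotypes, and the row of Acp5 passes from beyond the blue end in unstimulated IL10-/- cells to near or beyond the red end in stimulated p50-/-IL10-/- cells.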

How the data were processed

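The authors deposited 1 table of log2 values for 22690 probe sets on 12 arrays, made with RMA; RMA and limma are named in the submitters' processing notes, without versions. RMA gives the arrays a common distribution, so a change in total RNA is not visible. Probe sets with several symbols (691), no gene (1555) or controls (64) were left out, and each gene took its probe set with the highest mean.

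Group means were fitted with limma 3.58.1 (R 4.3.3) on all 12393 genes, for 12 comparisons; the residual degrees of freedom were 6, and the prior added 4.47. The method was also run on simulated data in which 200 genes were changed, far fewer than were called here with LPS. How often changes of the size seen here were recovered is not given. With 2 arrays in each group, no exact permutation test can reach a p under 0.333. P-values measure only the spread between these samples. The number of arrays limits the precision.

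Members and lists were chosen with earlier results of these data known, so no list was tested. A member was given array by array when it was among the 4 largest called changes of any comparison; other called members are named, and from other lists at most 3 called genes per comparison. Alternatives were the probe set rule, scaling, a filter on dim genes, the prior, the arrays in the fit, replicate blocks and leaving out each array.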

Additional observations from a re-analysis of the deposited data

How the results depend on the processing

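Beside leaving out arrays, 7 other settings were tried. Counts of members below are given without the share of all genes called in the same refit, so a changed count need not be particular to the members. With the probe set of largest variance the count was 0 for IL-10 in p50-/-IL10-/- cells and 7 for the genotype difference with LPS and IL-10 (3 higher, 4 lower), and the reversed values were 0.64, 0.17 and 0.51 for Gla (LPS in IL10-/- and p50-/-IL10-/- cells, and LPS with IL-10 against none in IL10-/- cells), 0.14, 0.19 and 0.13 for Laptm5 in the same comparisons, and -0.012 for the average genotype difference of Tpp1. With arrays centred on their medians the count for IL-10 in p50-/-IL10-/- cells was 2. With only the compared groups in the fit, counts were 11 for LPS in IL10-/- cells (0 higher), 0 for IL-10 in either genotype, 1 for genotype without stimulus and 2 for genotype with LPS; fewer arrays estimate the spread there. Leaving out 1 array gave 11 to 17 and 9 to 17 calls for LPS (IL10-/-, then p50-/-IL10-/-), 0 to 2 and 0 to 1 for IL-10, 11 to 15 and 13 to 15 for LPS with IL-10 against none, 1 to 2, 2 to 5 and 2 to 3 for genotype at the 3 stimuli, 9 to 13 for its average, 0 to 1 for the difference of LPS responses and 0 to 0 for that of IL-10 effects. Where the array or probe set moved a result the cause was not tested. The shared replicate numbers were not taken as pairing: deviations of same-numbered arrays correlated from -0.49 to 0.59 over 15 pairs of groups, although the 3 pairs within IL10-/- cells correlated at 0.40, 0.59 and 0.59. With the replicate block the counts were 18 and 17 for LPS and 14 for the average genotype difference over all arrays, or 19, 18 and 15 within genotypes, and no count moved by over 1.5 times. Both blocks ended the calls of Tpp1 with LPS in IL10-/- cells (adjusted p = 0.057 over all arrays, 0.068 within genotypes), Lipa with LPS in p50-/-IL10-/- cells (0.054 and 0.058) and, for the average genotype difference, Ctsa (0.059 and 0.071) and Tpp1 (0.0503 and 0.060); the block over all arrays also ended that of Gusb (0.052), while other members gained a call. Over the other settings, single members kept their side of the threshold 639 times, lost it 73 times and reversed 7 times. The number of arrays limits what could be detected.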
